A study of Mus musculus with 56 samples.

Results

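Ankyrins, spectrins and the adhesion molecules they bind hold voltage-gated sodium channels at the axon initial segment, the stretch of axon where action potentials start. The 8 genes described here, Ank1, Ank2, Ank3, Sptan1, Sptbn1, Sptbn4, Nfasc and Nrcam, were taken by name from the deposited expression table of 18088 genes. All 8 were found in the table, and all 8 passed the filter on low values that kept 17778 genes for testing (a value of at least 10 in at least 4 libraries). They were chosen by name for their role at the membrane skeleton of the axon, with earlier results of these data known.

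The 56 libraries came from the prefrontal cortex of C57BL/6J mice on postnatal day 25. The mice were wild type (WT, 27 libraries) or heterozygous for Scn2a (HT, 29 libraries), the gene of the sodium channel NaV1.2. For 3 weeks, from postnatal day 3 to 24, pups of both genotypes had received fluoxetine, a blocker of serotonin reuptake, lithium, a mood stabiliser, or vehicle, in each case through the milk of the dam. Genotype, drug and sex made 12 groups, 8 of them with 5 libraries and 4 with 4 libraries. The labels do not describe the Scn2a allele and name no litter or dam, so littermates may be among the libraries, and the p-values of drug effects are too small if pups given 1 drug were reared by the same dam. They also do not say that each library is a separate animal, and the p-values measure the spread between libraries. The tissue is a bulk dissection, in which fewer cells of a type and less RNA per cell cannot be told apart.

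The reads recovered from the deposited values came to 24.3 to 36.4 M per library (median 27.9 M), which counts only reads assigned to genes of the table. Scn2a was lower in HT libraries by a log2 difference of -0.53 ± 0.02 (SE), or -30.5%, averaged over drugs and sexes (limma adjusted p = 3.73e-25, lower in 29 of 29 HT libraries than the WT mean of the same drug and sex). Such counts of libraries, here and below, compare log2(value + 1) with its mean in the matching group. The 10 markers of cortical excitatory neurons were above 0 in every library. Libraries differed in markers of neighbouring tissue: 18 libraries had a mean log2 level of olfactory bulb or striatal markers more than 1 above the median library. Their effect on the results is given below. No file or label gave a sequencing batch.

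As background, giant isoforms of ankyrin-G, the product of Ank3, organise the initial segment and the nodes of Ranvier by binding sodium and potassium channels, the adhesion molecules neurofascin and NrCAM, and the spectrin lattice beneath the membrane. Ankyrin-B, from Ank2, serves other parts of the axon, and ankyrin-B has also been reported to position NaV1.2 in dendrites. Ankyrin-R, from Ank1, was first known from red blood cells and also occurs in parvalbumin interneurons. Spectrin is built of alpha and beta chains: Sptan1 encodes the alpha chain of nonerythroid spectrin, Sptbn1 the widespread beta II chain, and Sptbn4 the beta IV chain that ankyrin-G recruits to the initial segment. Nfasc encodes a neuronal form of neurofascin at initial segments and nodes and a glial form made by oligodendrocytes at paranodes, and Nrcam encodes a related member of the L1 family. The table gave 1 value per gene, so these isoforms were not resolved. Exons of Ank1 and Ank2 overlap those of Gm15816 (mean value 10.5) and Gm16958 (6.41) on the opposite strand, against means of 1842 for Ank1 and 27289 for Ank2.

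The sequences just before annotated transcription starts of Sptan1, Nrcam and Sptbn1 are shown. These 3 genes were among those that rose and fell together from library to library (below). Ank2, also among those, is described below, but its windows are not printed. Of Sptbn4, 1 window is shown because this gene encodes the beta chain most specific to the initial segment. Each run is the 250 bases before a RefSeq start (GRCm38.p6), 5′ to 3′ in the direction of the gene, with GC boxes (GGGCGG, on either strand) in capitals. RefSeq starts were matched for 6 of the 8 genes, and the 250 bases printed overlap no annotated exon. The Sptan1 and Nrcam windows end at the base before the annotated gene and those of Sptbn1 and Sptbn4 inside the annotated span of the gene. The Sptan1 window is chr2:29965310-29965559 (plus strand), the Nrcam window chr12:44328635-44328884 (plus strand), the Sptbn1 windows chr11:30219773-30220022 and chr11:30198258-30198507 (minus strand) and the Sptbn4 window chr7:27396554-27396803 (minus strand).
Sptan1: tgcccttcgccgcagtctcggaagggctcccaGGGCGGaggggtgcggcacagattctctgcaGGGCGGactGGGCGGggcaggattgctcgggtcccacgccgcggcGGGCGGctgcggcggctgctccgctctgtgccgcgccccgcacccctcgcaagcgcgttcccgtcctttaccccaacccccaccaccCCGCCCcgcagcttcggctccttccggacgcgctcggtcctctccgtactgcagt
Nrcam: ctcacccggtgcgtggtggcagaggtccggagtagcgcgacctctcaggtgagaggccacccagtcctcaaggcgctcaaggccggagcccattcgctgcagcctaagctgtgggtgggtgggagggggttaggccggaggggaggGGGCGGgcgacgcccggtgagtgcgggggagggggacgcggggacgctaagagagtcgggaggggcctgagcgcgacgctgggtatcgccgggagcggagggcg
Sptbn1, upstream start: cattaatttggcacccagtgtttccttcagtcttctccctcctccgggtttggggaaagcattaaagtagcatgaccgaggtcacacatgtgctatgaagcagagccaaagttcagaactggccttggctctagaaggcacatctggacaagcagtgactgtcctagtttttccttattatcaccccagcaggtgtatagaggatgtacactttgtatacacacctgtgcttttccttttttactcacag
Sptbn1, downstream start: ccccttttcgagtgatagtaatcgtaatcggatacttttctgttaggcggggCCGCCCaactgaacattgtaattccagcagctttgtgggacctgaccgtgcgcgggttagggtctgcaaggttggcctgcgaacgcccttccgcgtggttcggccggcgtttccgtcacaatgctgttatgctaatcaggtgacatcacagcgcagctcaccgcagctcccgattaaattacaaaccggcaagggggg
Sptbn4, second of 4 starts: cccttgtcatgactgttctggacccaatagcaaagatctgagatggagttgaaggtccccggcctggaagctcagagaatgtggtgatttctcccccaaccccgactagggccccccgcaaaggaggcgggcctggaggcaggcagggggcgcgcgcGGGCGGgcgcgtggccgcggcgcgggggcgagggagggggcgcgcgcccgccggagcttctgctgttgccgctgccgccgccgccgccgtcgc

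The Sptan1 window held 5 GC boxes and 31 CpG dinucleotides at 73.6% GC. The Nrcam window held 1 GC box and 25 CpG at 72.4% GC. The windows of the 2 RefSeq starts of Sptbn1 differed: the downstream window held 1 GC box and 20 CpG at 55.6% GC, and the upstream window no GC box and 2 CpG at 46.0% GC. The annotated gene extends further upstream than both, to chr11:30268175. Whether transcription begins at either of these starts in this tissue was not tested. The Sptbn4 window held 1 GC box and 28 CpG at 71.6% GC, and the other 3 Sptbn4 windows 33, 23 and 1 CpG at 72.0%, 75.2% and 48.4% GC. Over 32851 windows of this length the median was 6 CpG and 52.4% GC, and 32.7% held a GC box. Of the other motifs searched on both strands, the CCAAT box (CCAAT, in 33.8% of all windows) occurred once in the Sptbn4 window printed, and the TATA box (TATAAA, 12.4%), the E box (CACGTG, 6.02%) and the cyclic AMP response element (TGACGTCA, 1.55%) occurred in none of the 5 windows printed. The 4 Ank2 windows, not printed, held 19, 3, 5 and 2 CpG and no GC box, at 64.4%, 49.6%, 55.2% and 44.8% GC. The first of them held 1 TATA box and 1 CCAAT box, and the second 1 CCAAT box. All these motifs are matches of letters and say nothing of which factor binds.

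The levels of the 8 genes were compared per kilobase of exon, because long transcripts yield more reads. Values are reads divided by the size factor of the library, here per kilobase of the union of annotated exons. Sptan1 was the highest at 2904 ± 121 per kb (SD, n = 56 libraries), followed by Sptbn1 at 1863 ± 66.5 per kb. Every library had more Sptan1 than the highest Sptbn1 value, so the alpha chain stood apart from the most abundant of these beta chains. Nfasc at 880 ± 47.6 per kb, Nrcam at 880 ± 51.6 per kb, Ank2 at 780 ± 35.9 per kb and Sptbn4 at 739 ± 52.0 per kb followed, and the ranges of neighbours in this order overlapped. Ank3 was lower at 363 ± 20.5 per kb and Ank1 lowest at 136 ± 7.50 per kb, both apart from their neighbours. The order of the middle genes depends on which transcripts the neurons use. Per kilobase of the longest annotated coding transcript, Ank2 (1908 ± 88.0) and Nrcam (1874 ± 110) came next after Sptan1 and Sptbn1, and Ank3 (1269 ± 71.5) drew level with Nfasc (1279 ± 69.2). Per kilobase of the median coding transcript Nrcam came first (12837 ± 753), because the median of its 7 annotated coding transcripts is 0.916 kb long. Ank1 was lowest on all 3 scales.

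The residual SD around the 12 group means was 3.31% for Sptbn1, 4.09% for Sptan1, 4.32% for Ank2, 5.12% for Ank1, 5.35% for Ank3, 5.62% for Nfasc, 5.84% for Nrcam and 7.18% for Sptbn4. Its median over all tested genes was 9.76%, and over tested genes with a mean value of at least 1000, which is below the mean of every member, it was 5.65%. Of the members, Nrcam and Sptbn4 lay above the latter median and Nfasc at about its level.

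**Figure D1:**
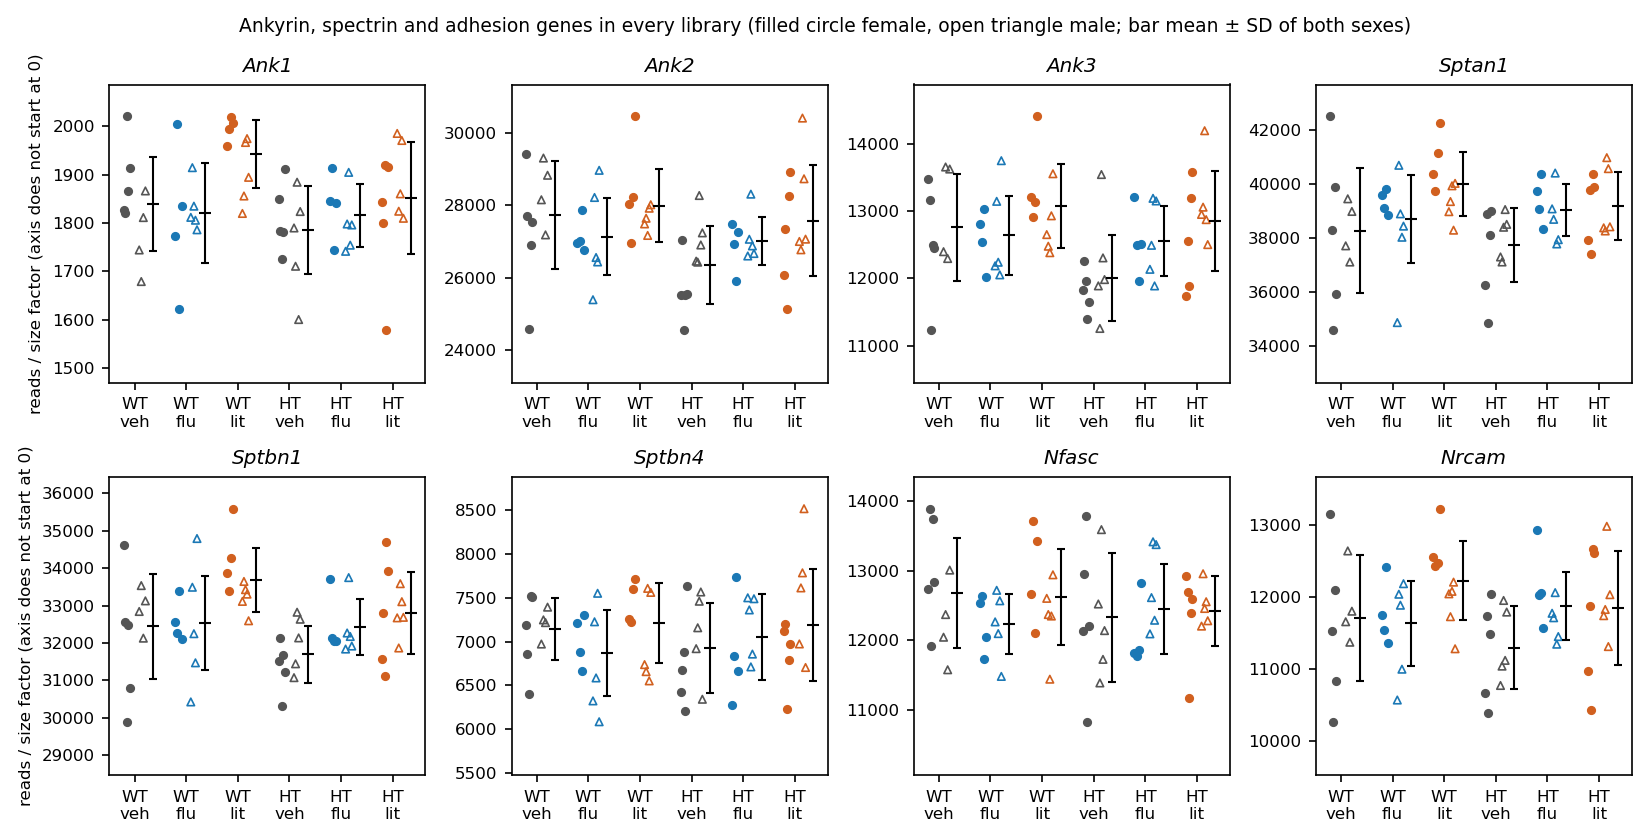
Normalised value (reads divided by size factor, vertical axis not starting at 0) of the 8 genes in each of 56 libraries, by genotype (WT, HT) and drug (veh, vehicle; flu, fluoxetine; lit, lithium). Filled circles are females, open triangles males, and bars the mean ± SD of 9 or 10 libraries. The lithium means lie above the vehicle means of the same genotype for every gene except Nfasc in WT, and all ranges overlap.

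The first comparison asked whether these genes differ in mice with reduced Scn2a. No member was called (limma adjusted p below 0.05) between HT and WT averaged over drugs, where 0.152% of all tested genes were called. The log2 difference was below 0 for 8 of 8 members, also with TMM rescaling, with voom weights, in edgeR and in DESeq2, and ran from -0.04 for Ank3 to -0.01 for Sptbn4, with a median of -0.03 beside 0.00012 over all genes. Several members rose and fell together from library to library (below). Agreement of sign over the 8 members, here and in the comparisons that follow, is therefore not 8 independent results. Adjusted p ran from 0.560 to 0.974, and 2 of 8 members, Ank2 and Ank3, had an unadjusted p below 0.05, as did 1437 of all 17778 tested genes. The 95% interval reached lowest for Ank3, at -5.56%, followed by Ank1 at -5.18%, Ank2 at -4.71% and Nrcam at -4.58%, so a fall as deep as the -30.5% of Scn2a lay outside the interval of every member.

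Under vehicle the genotype difference was largest for the neuronal ankyrins. Ank3, which encodes the master scaffold of the initial segment, had values of 11256 to 13542 with a median of 11926 in 10 HT vehicle libraries, and of 11240 to 13654 with a median of 12495 in 9 WT vehicle libraries. The ranges overlapped almost entirely, although 9 of 10 HT libraries lay below the WT mean of their sex. The log2 difference was -0.09 ± 0.03 (SE), or -6.00% with a 95% interval of -10.4 to -1.39% (adjusted p = 0.363). Ank2 ran from 24569 to 28274 (median 26445) in HT vehicle libraries and from 24579 to 29428 (median 27703) in WT vehicle libraries. All 10 HT libraries lay below the WT mean of their sex, and the log2 difference was -0.08 ± 0.03 (SE, adjusted p = 0.345). Neither was called, and 0.00562% of all tested genes were called here, which is Scn2a alone.

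The other members under vehicle had log2 differences of -0.05 (Nrcam), -0.05 (Sptbn4), -0.04 (Ank1), -0.04 (Nfasc), -0.03 (Sptbn1) and -0.02 (Sptan1), with adjusted p from 0.638 to 0.869. Under lithium all 8 differences were again below 0, though Sptbn4 was above 0 with voom weights and Ank2, Sptbn4 and Nfasc were above 0 without the 18 libraries rich in olfactory or striatal markers, and ran from -0.08 ± 0.03 (SE) for Ank1 (adjusted p = 0.432) to -0.01 for Sptbn4, with 0 of 8 members and 0.0337% of all tested genes called. Under fluoxetine 4 members were above and 4 below 0, from -0.01 to 0.03, with adjusted p of at least 0.9998 and 0.0112% of all tested genes called. These 3 comparisons use separate libraries. Whether the genotype difference depends on the drug was tested as an interaction, given with each drug below.

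The second comparison asked what fluoxetine does. Averaged over genotypes, 0 of 8 members were called, beside 0.928% of all tested genes. The log2 change ran from -0.02 for Sptbn4 to 0.03 for Sptan1, whose change of 2.45% had a 95% interval of -0.32 to 5.29% (adjusted p = 0.434). In HT mice all 8 changes were above 0, as with each scaling tried but, for Sptbn4 and Nfasc, not without the 18 libraries rich in olfactory or striatal markers, and ran from 0.01 for Nfasc to 0.08 ± 0.04 (SE) for Nrcam. Nrcam ran from 11346 to 12928 (median 11774) in 9 HT fluoxetine libraries and from 10389 to 12038 (median 11304) in 10 HT vehicle libraries. All 9 fluoxetine libraries lay above the vehicle mean of their sex, but the ranges overlapped and the change was not called (adjusted p = 0.575, with 0.045% of all tested genes called). In WT mice the changes ran from -0.06 for Sptbn4 to 0.02 for Sptan1, with adjusted p of at least 0.714 and 0.146% of all tested genes called. The difference of the fluoxetine effect between genotypes was above 0 for all 8 members, from 0.03 (Sptbn1) to 0.08 (Nrcam), with adjusted p from 0.946 to 0.985. No gene of the table was called in this interaction, and 967 had an unadjusted p below 0.05, none of them a member. The WT and HT effects share no library, but the vehicle libraries in them also serve in the genotype difference under vehicle above.

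The third comparison, which shares its 19 vehicle libraries with that of fluoxetine, asked what lithium does, and here 4 of 8 members rose: Ank1, Ank3, Sptan1 and Sptbn1, averaged over genotypes. Of all tested genes 9.31% were called higher and 16.2% were called in either direction. All 8 members had a log2 change above 0, under TMM, voom, edgeR and DESeq2 as well, with a median of 0.06 beside 0.00032 over all genes. The called changes were between 3.69% and 4.98%, and they depended on the processing as set out below.

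Sptan1, whose alpha chain pairs with every nonerythroid beta spectrin, ran from 37384 to 42267 (median 39779) in 19 lithium libraries and from 34604 to 42492 (median 38277) in 19 vehicle libraries. Its log2 change was 0.06 ± 0.02 (SE), or 4.36% with a 95% interval of 1.59 to 7.21% (adjusted p = 0.0226), and 18 of 19 lithium libraries lay above the vehicle mean of their genotype and sex. The vehicle libraries reached both lower and higher than the lithium libraries, so the top of the range did not rise. The median and the low end of the range were higher under lithium. Low vehicle values were those of WT vehicle female 3 (34603.8) and HT vehicle female 3 (34852.9), both among the 18 libraries rich in olfactory or striatal markers. WT vehicle female 5 (35913.5) was also low and not among them. The lithium change without the 18 libraries is given below.

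Sptbn1, the beta II chain, ran from 31115 to 35582 (median 33303) under lithium and from 29899 to 34623 (median 32130) under vehicle. Its log2 change was 0.05 ± 0.02 (SE), or 3.69% with a 95% interval of 1.36 to 6.07% (adjusted p = 0.0217), with 16 of 19 lithium libraries above the matching vehicle mean. The ranges overlapped. Alpha and beta II spectrin thus rose by similar amounts, and their difference was not tested.

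Ank1, the gene of ankyrin-R, ran from 1580 to 2020 (median 1917) under lithium and from 1600 to 2020 (median 1821) under vehicle. Its log2 change was 0.07 ± 0.02 (SE), or 4.98% with a 95% interval of 1.58 to 8.49% (adjusted p = 0.0343), with 17 of 19 lithium libraries above the matching vehicle mean. Both groups spanned nearly the same range and differed in their centre.

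Ank3 ran from 11738 to 14405 (median 12929) under lithium and from 11240 to 13654 (median 12294) under vehicle. Its log2 change was 0.07 ± 0.02 (SE), or 4.81% with a 95% interval of 1.32 to 8.42% (adjusted p = 0.0479), with 14 of 19 lithium libraries above the matching vehicle mean. It is the call nearest to the threshold.

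The other 4 members were not called. Nrcam had a log2 change of 0.07 ± 0.03 (SE, adjusted p = 0.0709), as large as that of Ank3 with a wider spread. Ank2 had 0.04 ± 0.02 (adjusted p = 0.193) and Sptbn4, the beta chain most specific to initial segments and nodes, 0.03 ± 0.03 (adjusted p = 0.509). Nfasc had 0.01 ± 0.03 (adjusted p = 0.871), with a 95% interval of -2.92 to 4.20%.

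**Figure D2:**
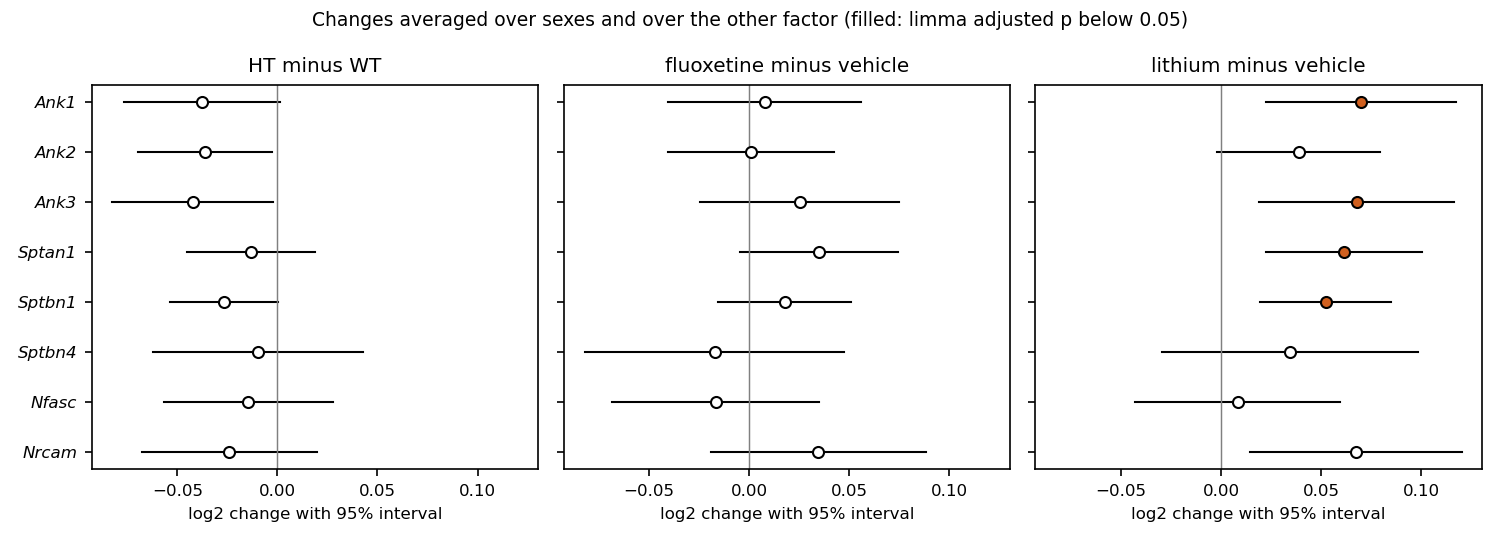
Log2 change (horizontal axis) of each of the 8 genes (rows) between genotypes and for each drug, averaged over sexes and over the other factor, with 95% intervals. Filled points passed an adjusted p of 0.05 in limma: Ank1, Ank3, Sptan1 and Sptbn1 under lithium, with log2 changes from 0.05 to 0.07, and no other point.

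Within a genotype no member was called under lithium. In WT mice, where 5.71% of all tested genes were called, the log2 change ran from 0.003 for Nfasc, which was below 0 with TMM, voom, edgeR and DESeq2, to 0.09 ± 0.03 (SE) for Ank1 (adjusted p = 0.107), and all 9 WT lithium libraries lay above the WT vehicle mean of their sex for Ank1. The direction of the WT calls over all genes moved with the scaling: 682 of 1016 were higher as reported, 460 of 818 in edgeR and 316 of 794 with voom weights. In HT mice, where 8.77% of all tested genes were called, the change ran from 0.01 for Nfasc to 0.10 ± 0.03 (SE) for Ank3 (adjusted p = 0.0551). On the log2 scale Sptan1 was above the vehicle mean of its sex in 10 of 10 HT lithium libraries, with a log2 change of 0.05 ± 0.03 (adjusted p = 0.202). The difference of the lithium effect between genotypes ran from -0.04 for Ank1 to 0.06 for Ank3 with adjusted p of at least 0.648. No gene of the table was called in it, and 1934 had an unadjusted p below 0.05, none of them a member.

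Settings moved the lithium count. The 4 calls of limma became 2 (Sptan1 and Sptbn1) with TMM rescaling, with voom weights and in edgeR on the recovered reads, and stayed 4 in DESeq2. With covariates for how strongly a library's values rise with the length and the GC content of transcripts, 0 members were called (adjusted p from 0.262 to 0.977), and Ank2 and Nfasc then had log2 changes below 0. The log2 changes of the 4 genes were then smaller, at 0.02 for Ank1, 0.02 for Ank3, 0.03 for Sptbn1 and 0.04 for Sptan1. Without the 18 libraries rich in olfactory or striatal markers 0 members were called, with Sptbn1 at a log2 change of 0.05 and adjusted p = 0.0701, Sptan1 at 0.05 and 0.164, Ank3 at 0.06 and 0.209, and Ank1 at 0.05 and 0.257. With those marker scores as covariates 3 were called and with the oligodendrocyte score 4. Leaving out 1 library at a time gave 2 to 5 calls: 2 without HT lithium female 5, HT vehicle female 3, HT vehicle male 2, HT vehicle male 4, WT lithium male 4 or WT vehicle male 1, and 5, with Nrcam, without HT lithium female 1 or WT vehicle female 1. Sptan1 and Sptbn1 stayed called in all 56 omissions (highest adjusted p 0.0446 and 0.0466), Ank1 was not called in 11 and Ank3 not in 29.

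**Figure D3:**
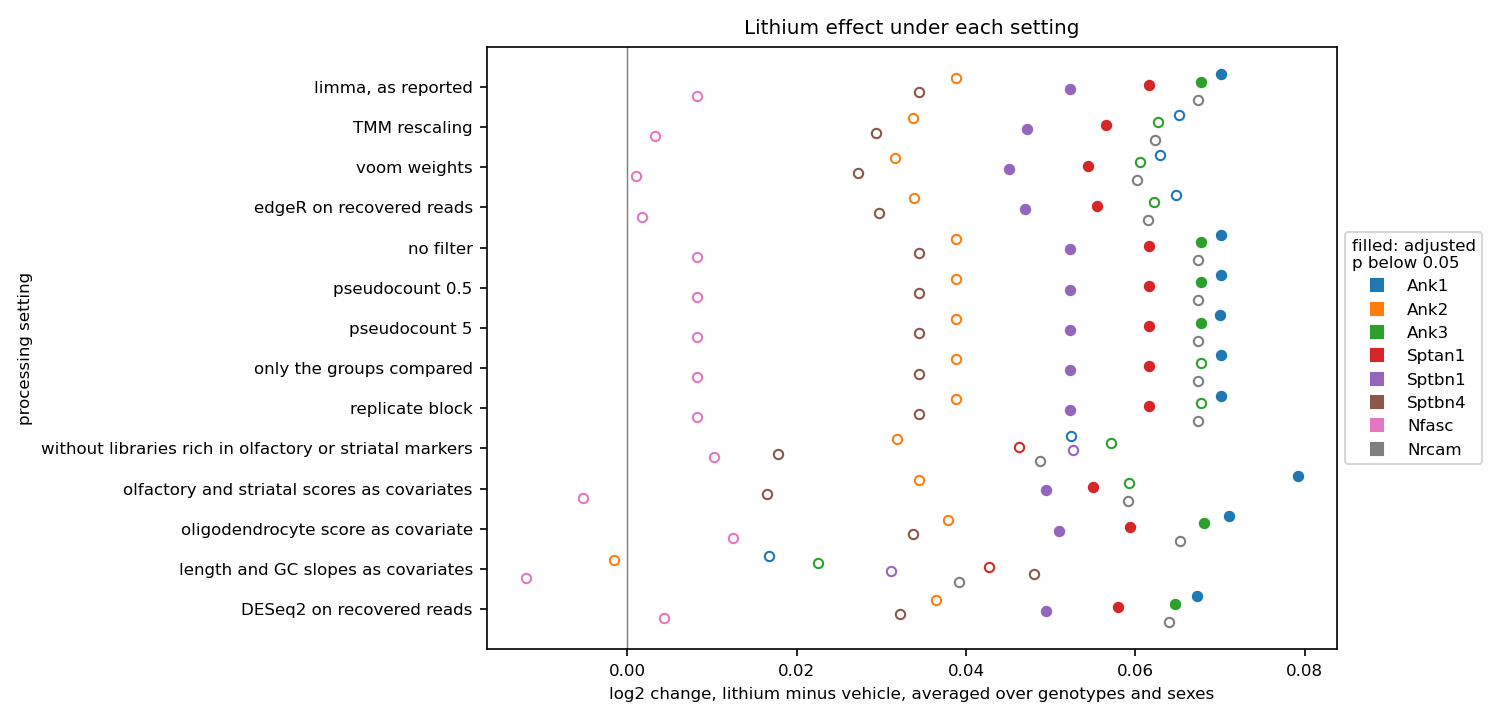
Log2 change between lithium and vehicle (horizontal axis) of the 8 genes (colours) under each processing setting (rows), filled where the adjusted p was below 0.05. Sptan1 and Sptbn1 are filled in all rows but 2, the row without 18 libraries rich in olfactory or striatal markers and the row with length and GC slopes.

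The longest annotated coding transcript of the 8 members is 6.28 kb (Nrcam) to 14.3 kb (Ank2), against a median of 2.98 kb over all tested genes. By the median annotated coding transcript the members run from 0.916 kb (Nrcam) and 2.33 kb (Ank2) to 8.35 kb (Sptbn1), against 2.15 kb, so on that scale, the one the length setting used, not all are long. Log2 deviations in each library were fitted jointly on the log2 of this median length and on GC content, each scaled to an SD of 1 over genes. The slope on length, given GC content, was thus 1 value per library. It ran from -0.011 to 0.041 (median 0.0098) in 19 lithium libraries and from -0.030 to 0.020 (median -0.0074) in 19 vehicle libraries. In 18 fluoxetine libraries it ran from -0.037 to 0.023 (median -0.0070). The ranges overlapped, and the median was highest in lithium libraries. By genotype the medians were -0.0114 (vehicle), 0.0053 (fluoxetine) and 0.0096 (lithium) in HT mice. In WT mice they were -0.0031, -0.0099 and 0.0098 in the same order. The median under fluoxetine was thus above that under vehicle in HT mice and below it in WT mice. The part of this slope in the members' changes was not tested beyond the fit with it as a covariate, and a slope on length can itself hold a drug effect.

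Sex made no difference that was called. Averaged over genotypes and drugs, female minus male ran from -0.03 to 0.02 on the log2 scale over the 8 members (adjusted p from 0.862 to 0.993, with 0.197% of all tested genes called). The sex difference of the genotype effect was largest for Sptbn4 at -0.13 (unadjusted p = 0.0184, adjusted p = 0.909), and no gene was called in any of the 3 sex differences of effects. Genes with an unadjusted p below 0.05 numbered 965 for the genotype effect, 1514 for fluoxetine and 1273 for lithium.

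Within groups, the members fell into those that rose and fell together and those that did not. The deviations of each library from its group mean were correlated over 56 libraries, with p-values from 100000 permutations within groups, adjusted over the 68 relations computed (1e-05 is the smallest p these can give). Ank2 and Sptbn1 were the closest pair, with Pearson's r = 0.865 and Spearman's rho = 0.822 (permutation p = 1e-05 each, adjusted 4.2e-05), and r = 0.843 without the 2 farthest libraries. Sptbn1 and Nrcam had r = 0.863 and rho = 0.822, and Ank2 and Ank3 had r = 0.831 and rho = 0.801 (permutation p = 1e-05 and adjusted 4.2e-05 for each). Over the 10 pairs of Ank2, Ank3, Sptan1, Sptbn1 and Nrcam, a set picked after the values were seen, r ran from 0.553 to 0.865 and all 10 had an adjusted permutation p below 0.05. Over the other 18 pairs r ran from -0.213 to 0.457, and 2 had an adjusted permutation p below 0.05: Ank3 with Nfasc (r = 0.457, rho = 0.428, adjusted 0.0046 and 0.0092) and Sptan1 with Sptbn4 (r = 0.371, rho = 0.390, adjusted 0.038 and 0.024). The genes of a library share its depth, dissection and RNA quality.

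**Figure D4:**
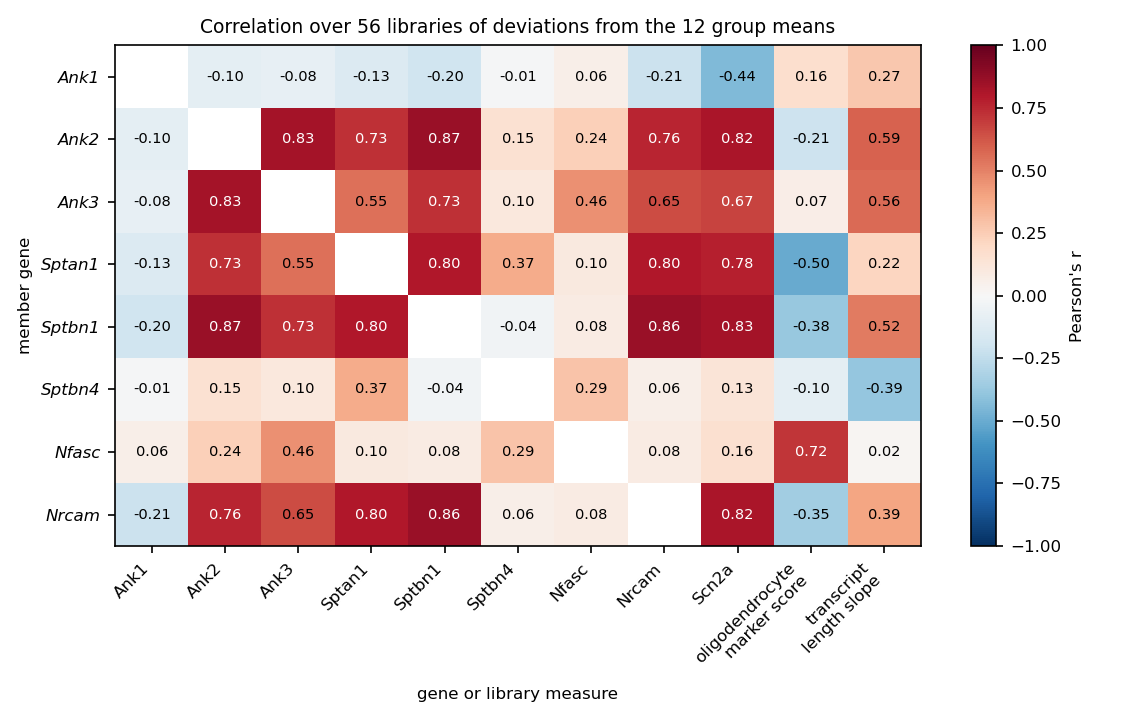
Pearson's r over 56 libraries, after removal of the 12 group means, of each of the 8 genes (rows) with the others, with Scn2a, with an oligodendrocyte marker score and with the slope of expression on transcript length (columns). The block of Ank2, Ank3, Sptan1, Sptbn1 and Nrcam is red throughout (0.55 to 0.87) and also red with Scn2a, whereas Ank1, Sptbn4 and Nfasc reach at most 0.46 with any other member, and Nfasc is red with the oligodendrocyte score (0.72).

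Scn2a also moved with the same 5 genes within groups. Its r was 0.833 with Sptbn1 (rho = 0.724), 0.819 with Nrcam (rho = 0.745), 0.818 with Ank2 (rho = 0.767), 0.776 with Sptan1 (rho = 0.739) and 0.674 with Ank3 (rho = 0.635), each with a permutation p = 1e-05 and adjusted 4.2e-05. Without the 2 farthest libraries these became 0.783, 0.770, 0.764, 0.681 and 0.603. With Ank1 r was -0.438 (rho = -0.289, permutation p = 0.0039 and 0.047, adjusted 0.011 and 0.093), so by rank that relation did not pass. With Nfasc (0.161) and Sptbn4 (0.128) it was near 0. The slope of a library on transcript length had r = 0.593 with Ank2, 0.563 with Ank3, 0.518 with Sptbn1 and 0.392 with Nrcam (rho = 0.630, 0.545, 0.583 and 0.388, adjusted permutation p from 4.2e-05 to 0.018), but 0.218 with Sptan1 (rho = 0.272, adjusted permutation p = 0.14 and 0.11). With Sptbn4 it had r = -0.387 (rho = -0.336, adjusted permutation p = 0.029 and 0.052), with Ank1 0.266 (rho = 0.313, adjusted 0.13 and 0.065) and with Nfasc 0.019.

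Nfasc moved with markers of oligodendrocytes. Its deviations had r = 0.716 and rho = 0.703 with the mean log2 level of 14 oligodendrocyte markers (permutation p = 1e-05, adjusted 4.2e-05), and r = 0.720 without the 2 farthest libraries. It also had r = 0.625 and rho = 0.601 with the striatal score (permutation p = 1e-05, adjusted 4.2e-05). The summed level of the 14 oligodendrocyte markers ranged from 109567 to 203799 under lithium, from 108900 to 265493 under vehicle and from 115154 to 234031 under fluoxetine, all 14 were above 0 in every library, and with their score as a covariate the lithium change of Nfasc was 0.01. Sptan1 went the other way, with r = -0.503 (rho = -0.439, adjusted permutation p = 0.0025 and 0.0068) with the oligodendrocyte score, as did Sptbn1 with r = -0.378 (rho = -0.356, adjusted 0.024 and 0.036) and Nrcam with r = -0.346 (rho = -0.326, adjusted 0.047 and 0.053). With the olfactory score Sptan1 had r = -0.534 (rho = -0.504, adjusted permutation p = 0.0011 and 0.0017), Sptbn4 r = -0.513 (rho = -0.479, adjusted 0.0016 and 0.0038), Nrcam r = -0.441 (rho = -0.396, adjusted 0.017 and 0.027) and Ank1 r = 0.412 (rho = 0.401, adjusted 0.017 and 0.018). The summed olfactory markers ran from 5781 to 25089 under lithium and from 5975 to 26467 under vehicle, with medians of 6721 and 8218.

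The genes most like each member in these deviations, among 12777 genes with a mean of at least 50, are given as a description. For Ank2 they were Pclo (r = 0.910), Dst (0.877) and Nbea (0.869), for Ank3 Dst (0.842), Pclo (0.839) and Tanc2 (0.836), and for Sptbn1 Pclo (0.891), Ank2 (0.865) and Atrn (0.864). Sptan1 was closest to Kalrn (0.888), Sez6l (0.865) and Slc4a8 (0.856), and Nrcam to Gabrb2 (0.900), Prepl (0.893) and Kifap3 (0.883). Nfasc was closest to Mag (0.822), the gene of myelin-associated glycoprotein, Abca2 (0.810) and Dip2a (0.806). Sptbn4 was closest to Pitpnm2 (0.851), Tmem214 (0.849) and Dbn1 (0.824), and Ank1, with the weakest likeness, to Adarb1 (0.691), Rasa4 (0.686) and Hcn3 (0.655).

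Partners of the members were read from 7 lists of genes named for their roles. Of the erythroid beta spectrin gene Sptb, the log2 difference between HT and WT averaged over drugs was -0.04 ± 0.01 (SE, limma adjusted p = 0.161), and Sptb was not called in any of the other comparisons.

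Adducins and protein 4.1 cap and cross-link the spectrin-actin junction. Under lithium 2 of 15 such genes were called, both higher: Epb41 (log2 change 0.17, adjusted p = 0.0184) and Add2, the neuronal adducin (0.07, adjusted p = 0.0332), and the median of the 15 was 0.01. Over all tested genes 16.2% were called in this comparison, 9.31% higher, so this count is near that share. Of 4 calpain and calpastatin genes, the proteases that cleave spectrin and their inhibitor, 1 was called, calpastatin Cast (0.09, adjusted p = 0.0462), which lost its call in 6 of 13 settings, TMM, edgeR and DESeq2 among them. Epb41 lost its call with the length and GC slopes, and Add2 with these and without the 18 libraries.

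The lists of channels, adhesion partners, matrix and scaffold are short, and their counts were not tested against the 16.2% of all genes called (9.31% higher). Of 12 channel genes 3 were called under lithium, all higher: Kcna1 (0.25 ± 0.04, SE, adjusted p = 3.37e-05), Kcna2 (0.12, adjusted p = 0.00936) and Scn8a (0.09, adjusted p = 0.0122), with a list median of 0.04. Of 10 L1 family and paranodal adhesion genes 4 were called, all higher: Lgi1 (0.11, adjusted p = 0.00643), L1cam (0.08, adjusted p = 0.0167), Cntn1 (0.07, adjusted p = 0.0194) and Cntnap1 (0.09, adjusted p = 0.0277), with a list median of 0.07. Of 8 matrix genes 2 were called, Hapln4 (0.17, adjusted p = 0.0133) and Ncan (0.06, adjusted p = 0.0213). Of 13 scaffold and microtubule genes Synpo, the synaptopodin of the cisternal organelle, rose (0.14, adjusted p = 0.00319) and Dlg2 fell by 0.10 (adjusted p = 0.0156). Kcna1 and Synpo stayed called in all 13 other settings and all 56 omissions, with adjusted p of at most 0.0149 and 0.0351 over the former. The others of these 4 lists lost their call with the length and GC slopes, without the 18 libraries, or with both, and Ncan also with voom weights. Under fluoxetine, averaged over genotypes, 0 genes of these 7 lists were called, and in HT against WT averaged over drugs Scn2a alone was.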

How the data were processed

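Per the labels' protocols, libraries were made with a stranded mRNA kit (TruSeq). Per the submitters' processing notes, the tools were Salmon 0.11.2, DESeq2 1.19.11 and R 3.6.0 with build GRCm38; their roles, the annotation and the strand setting are not given in the sources used here. The deposited values are a signal, which the authors made by dividing each gene's read count by 1 size factor per library (0.818 to 1.23). Multiplied by the size factor of its library, 100% of values came out as whole reads within 0.01. For low counts that check says little in 3 HT libraries, vehicle males 2 and 5 and lithium female 5, whose factors (0.9985, 1.00009 and 0.9927) are near 1.

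From these values limma 3.58.1 (R 4.3.3, trend and robust) was fitted to log2(value + 1) with 12 group means over all 56 libraries, with 44 residual degrees of freedom, and p-values were adjusted by Benjamini-Hochberg over 17778 genes in each of 16 comparisons. Sexes were averaged with equal weight. On simulated counts with known changes the fit was tested before use. The changes planted there were larger than those of the members and lay in the WT lithium groups only. Genes were drawn independently of each other, so the simulation cannot speak to changes as small as those reported here. Alternatives were TMM and voom on the deposited values, and edgeR 4.0.16 and DESeq2 1.42.0 on recovered reads. The voom setting also rescaled each library by its sum of values. Further alternatives were no filter, pseudocounts of 0.5 and 5, only the groups compared, and the replicate block. Marker scores or length and GC slopes were used as covariates. The last settings were leaving out 18 libraries rich in olfactory or striatal markers, and leaving out each library. Levels per longest transcript were added after the data were seen. Named were all members, up to 4 called genes of each list, otherwise the smallest p, and the 3 genes most like each member. Some genes that this rule names are not reported here. The members and lists were chosen with earlier results of these data known. Symbols matched 18077 of 18088 gene IDs in GENCODE vM21.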

Additional observations from a re-analysis of the deposited data

Results flagged for a closer look

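In 5 of 96 groups of 4 or 5 libraries 1 value of a member lay far from the rest of its group by Dixon's criterion, about the share (1 in 20) that chance gives. Sptbn1 was 33700.6 in HT fluoxetine female 1, where the other libraries of that group ran from 32043 to 32123, and 33744.8 in HT fluoxetine male 3, where the others ran from 31839 to 32267. In that male Ank2 was also high, at 28312.2 against 26602 to 27065. Nfasc was 12822.2 in HT fluoxetine female 4, where the others ran from 11775 to 11856. Nrcam was 13224.4 in WT lithium female 4, where the others ran from 12428 to 12560, and leaving that library out raised the adjusted p of the lithium change of Ank3 to 0.100. In 64 contrasts compared between genotypes or sexes, in 0 did every library of one group move up and every library of the other move down.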

How the results depend on the processing

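The count of members called under lithium, 4 as reported, was 2 with TMM rescaling, 2 with voom weights, 2 in edgeR, 0 without the libraries rich in olfactory or striatal markers, a setting with fewer libraries, and 0 with the length and GC slopes as covariates; it was 3 or 4 in the other settings, and 2 to 5 when single libraries were left out. The cause of these differences was not tested. With the replicate block 3 were called, Ank3 being lost at an adjusted p of 0.0536 in limma, and no other call changed. Replicate numbers are not known to pair libraries: residuals of libraries with the same number had a median correlation of -0.0016 over 292 pairs, against -0.0002 over 1144 others, and 9 of 56 libraries correlated best with their own number, taking the number in the title, which differs from that in the library name for 3 WT lithium females and 1 WT fluoxetine female. In HT mice the lithium count of 0 became 1 (Ank3) with voom weights, 1 with the olfactory and striatal scores as covariates and 1 in DESeq2, and ranged from 0 to 1 over omissions, being 1 without HT lithium female 1, HT lithium female 3, HT lithium male 5, HT vehicle male 3, WT fluoxetine male 5 or WT vehicle female 3. In WT mice it became 1 (Ank1) with those scores as covariates, and ranged from 0 to 1 over omissions, being 1 (Sptan1) without WT vehicle female 1. In the other 13 comparisons 0 members were called under every setting run. Of 124 member changes that were not called, 37 had the opposite sign in at least 1 setting. Over all genes the lithium count of 2872 was 1277 with the length and GC slopes and 1274 without the 18 libraries; in WT mice the count of 1016 was 226 and in HT mice the count of 1560 was 561 without them and 450 with the slopes. The genotype count of 27 was 68 with the tissue scores, 50 with the slopes, 49 in DESeq2, and 15 without the 18 libraries.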
